A study of Mus musculus with 10 samples.

Results

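Glycolysis and the pentose phosphate pathway were followed through 34 genes in cells washed from the peritoneal cavity of septic mice, 34 of 34745 rows of a gene count table. The members were taken by gene symbol, by a rule that uses no measured value, but they were chosen with earlier results of these data known. They were 23 genes that carry glucose from its uptake to pyruvate, 4 pyruvate dehydrogenase kinases (Pdk1 to Pdk4) and 7 pentose phosphate genes. All 34 were matched and all 34 passed the filter on low counts. Sepsis was induced by cecal ligation and puncture, in which the bowel is tied off and pierced. The AX group held 5 libraries from lavage cells of mice given amlexanox, an anti-inflammatory drug whose known targets include TBK1 and IKKε, and the NC group held 5 libraries from mice given vehicle. The labels give only the letters AX and NC, which were read as amlexanox and vehicle from the stated design. The sources used here do not give mouse strain, age, sex, dose or time after surgery. Nothing in the labels says that each library came from a separate animal, so p-values measure the spread between these libraries, which may be technical.

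Glycolysis turns glucose into pyruvate in the cytosol and yields ATP without oxygen. The pentose phosphate pathway branches off at glucose 6-phosphate. Its oxidative branch makes NADPH, which neutrophils and macrophages spend on the oxidative burst, and its non-oxidative branch interconverts sugar phosphates. Pyruvate dehydrogenase kinases hold back the oxidation of pyruvate in mitochondria. Activated myeloid cells are known for high glucose use.

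Total counts lay between 11080315 and 13492495 in AX libraries and between 10221170 and 13806885 in NC libraries. The members held 0.954 ± 0.0848% of all counts in AX libraries and 1.01 ± 0.166% in NC libraries (SD, n = 5 each). Levels are CPM, counts per fixed library total, with totals scaled by the trimmed mean of M values (TMM), unless a value is said to be FPKM, the deposited value per kilobase and library total. The leukocyte gene Ptprc was lowest in AX 8, at 22.5 CPM, with the other libraries between 355.4 and 1179.9 CPM. Marker lists gave the cell mixture, and all their genes had counts. Neutrophil genes, 20 in all, summed to 9364 to 18604 CPM in AX libraries and 11116 to 21134 CPM in NC libraries, with a higher mean in AX for 5 of 20. Monocyte and macrophage genes, 18 in all, summed to 3191 to 4925 CPM in AX libraries and 3471 to 5331 CPM in NC libraries, with a higher mean in AX for 6 of 18. Genes of large peritoneal macrophages, 14 in all, summed to 23530.3 to 39377 CPM in AX libraries and 20487 to 43186 CPM in NC libraries. The mean was higher in AX for 13 of 14, but the NC range of the sums took in the whole AX range. The sums thus did not follow that count of genes. The summed levels overlapped between the groups, and covariate fits were run for the neutrophil and mesothelial lists alone. AX 8, lowest in Ptprc, had the highest neutrophil sum of the AX group, 18604 CPM. Its sum was 35161 CPM for large peritoneal macrophages and, lowest of all libraries, 3191 CPM for monocytes and macrophages. AX 6 and NC 1 stood apart in genes of mesothelium, the lining of the peritoneum. Their summed level over 14 of 14 listed mesothelial genes was 2853 CPM in AX 6 and 1208 CPM in NC 1, against 139.7 to 430.9 CPM in the other libraries. The 15 stromal genes summed to 3388 CPM in AX 6 and 1552 CPM in NC 1, against 319.0 to 922.8 CPM elsewhere. A higher mean in AX was seen for 14 of 14 mesothelial and 14 of 15 stromal genes. Gut epithelial genes, 11 in all with 0 higher in AX, summed to 572.9 CPM in AX 6 and 1059 CPM in NC 1. NC 4 followed at 474.4 CPM, and the others lay at 20.6 to 114.2 CPM. Erythroid genes, 7 in all with 6 higher in AX, summed to 1822 CPM in AX 6 and 843 CPM in NC 1. Elsewhere their sum was 88.3 to 583.5 CPM. The lavage is a mixture of cells, so fewer cells of a type and less RNA per cell cannot be told apart in any value given here.

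The sequences that bear most on these counts are coding stretches that the genome carries more than once. Gapdh, glyceraldehyde 3-phosphate dehydrogenase, lies at chr6:125161715-125166467 (mm10, minus strand). Over its longest coding transcript, 78.05% of all 100-base windows recur in other annotated genes, 86 of them, of which 82 are pseudogenes. Its whole coding sequence of 999 bases is identical in the processed pseudogene Gm7336. Pgk1, phosphoglycerate kinase, lies at chrX:106187100-106203699 (plus strand). For Pgk1, 67.03% of windows recur in 3 other genes, and 1250 of its 1251 coding bases are identical in Pgk1-rs7. Shown are bases 1 to 120 of the Gapdh coding sequence and bases 2 to 121 of that of Pgk1, each identical in its copy, so no letter is set in capitals (sequences read from GENCODE M21, GRCm38).
Gapdh: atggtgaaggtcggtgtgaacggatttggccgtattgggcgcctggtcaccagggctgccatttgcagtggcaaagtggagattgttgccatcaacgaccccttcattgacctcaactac
Pgk1: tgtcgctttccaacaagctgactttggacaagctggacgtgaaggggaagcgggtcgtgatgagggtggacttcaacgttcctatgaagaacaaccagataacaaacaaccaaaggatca
A read from such a stretch cannot be assigned to its gene from its sequence alone, and the sources used here do not say how reads with several matches were counted. In Eno1, enolase, the share of recurring windows was 59.02%, and in Pgam1, phosphoglycerate mutase, 39.74%. No recurring window was found in 20 of the 34 members.

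Promoter windows show the second feature that several members share. The letters ACGTG, the core of the motif bound by hypoxia-inducible factors, were searched on both strands in RefSeq windows (GRCm38.p6) from 250 bases before to 50 bases after each annotated start, 300 bases in all. On the minus strand the motif reads CACGT, and both readings overlap in CACGTG. At least 1 match was found in 16 of 33 members with a window (48.5%), against 21.8% of 27025 genes. By window, 20 of 49 member windows (40.8%) held a match, against 19.6% of 32851 windows. The comparison was not matched for base content or for windows per gene. Windows of the same gene can overlap and share a match, as in Aldoa. No window of Pdk1, Eno1 or Tpi1 held a match. The windows of Pkm and Pgk1 are shown since these are the most abundant members by FPKM. Capitals mark the motif.
Pkm, chr9:59656977-59657276, plus strand: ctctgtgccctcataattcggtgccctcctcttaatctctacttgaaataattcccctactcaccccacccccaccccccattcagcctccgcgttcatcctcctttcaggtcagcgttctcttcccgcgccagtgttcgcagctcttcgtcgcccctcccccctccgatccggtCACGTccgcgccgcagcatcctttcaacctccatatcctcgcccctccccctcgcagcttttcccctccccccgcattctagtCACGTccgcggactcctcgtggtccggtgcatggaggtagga
Pgk1, chrX:106186850-106187149, plus strand: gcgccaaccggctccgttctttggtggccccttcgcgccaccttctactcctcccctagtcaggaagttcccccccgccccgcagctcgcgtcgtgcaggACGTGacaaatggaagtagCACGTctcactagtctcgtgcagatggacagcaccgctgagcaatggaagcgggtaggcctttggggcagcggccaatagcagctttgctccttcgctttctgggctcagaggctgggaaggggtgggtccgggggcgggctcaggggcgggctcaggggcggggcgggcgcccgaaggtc
The Pkm window held the motif 2 times on the minus strand, and the other Pkm window of the table held none. The Pgk1 window held it 1 time on each strand. A match in these letters is no record of a bound factor.

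No member passed the test between AX and NC. In edgeR's quasi-likelihood test with Benjamini-Hochberg adjustment over all 12264 genes tested, 0 of 34 members had an adjusted p under 0.05, beside a background of 0.0% of all genes tested, and all members' adjusted p was 0.9999. Without adjustment, 0 members had a p under 0.05, beside 113 genes or 0.921% of all tested. DESeq2 gave 193 such genes and limma-voom 132, with 0 members by either tool. In 0 of 34 members did the AX and NC libraries fail to overlap, beside 0.139% of all genes tested. A two-sided exact permutation of the library labels, which cannot give a p below 0.00794, gave 0 members with a p under 0.05. Fitted values were higher in AX for 13 members and lower for 21, while 53.6% of all genes tested were higher and 46.4% lower. The median log2 fold change of AX over NC was -0.08 over the members and 0.02 over all genes tested. The median over the members was 0.04 without NC 2, 0.01 without AX 7 and -0.14 with library totals in place of TMM, so its sign rested on single libraries. For 22 members the 95% interval lay inside a 2-fold change in either direction. For the other 12 it reached 2-fold or beyond in at least 1 direction, so changes of that size were not excluded by the libraries. The members spread among libraries about as far as other genes did, with a median SD of log2 CPM of 0.46 for members and 0.46 for all genes tested.

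**Figure D1:**
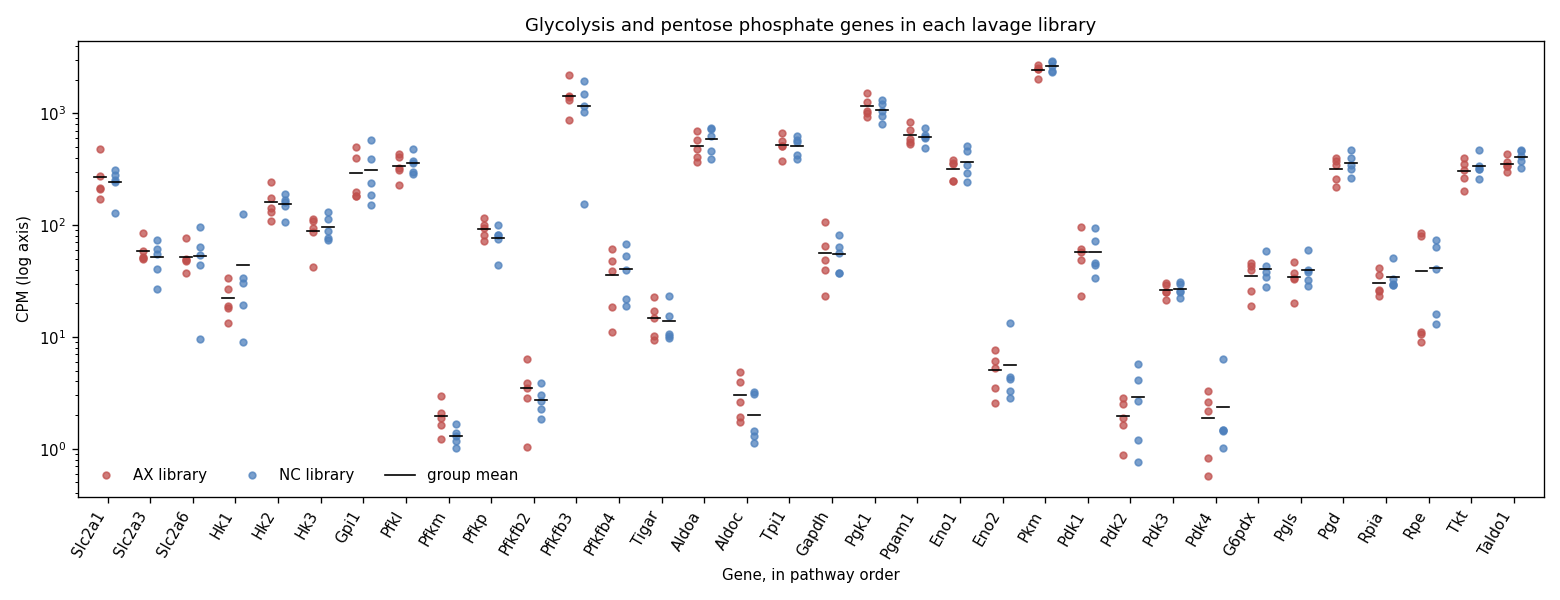
CPM of the 34 genes in pathway order on a log axis, with each AX library (left of each pair) and each NC library (right) as a point and the group mean as a bar. The groups overlap for every gene. Pkm, at 2022 to 2728 CPM in AX libraries and 2349 to 2917 CPM in NC libraries, is the tightest of the abundant genes.

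**Figure D2:**
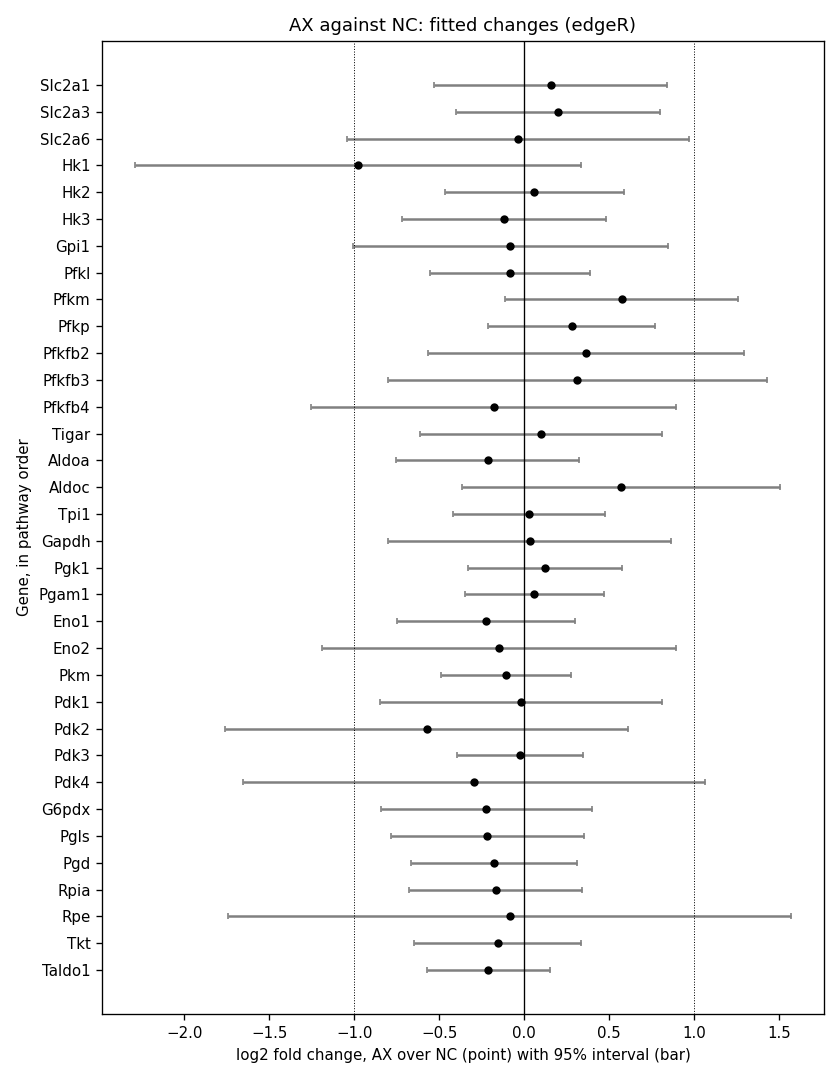
Fitted log2 fold change of AX over NC for each gene (point) with its 95% interval (bar) from edgeR, and dotted lines at 2-fold in either direction. All 34 intervals include 0, and 22 lie inside the dotted lines.

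Glucose enters through facilitative transporters of the Slc2a family. Slc2a1 (GLUT1, the widespread basal glucose transporter, chr4:119108711-119137983) had 479.7, 215.3, 277.8, 210.7 and 170.8 CPM in AX 6 to AX 10, against 279.2, 241.3, 253.9, 312.0 and 129.1 CPM in NC 1 to NC 5. AX 6 was the highest library and NC 5 the lowest, and the groups overlapped. The log2 fold change of AX over NC was 0.16 ± 0.31 (SE), and it was -0.10 without AX 6 and NC 1. Slc2a3 (GLUT3, a high-affinity transporter, chr6:122727809-122801640) had 52.1, 50.6, 84.7, 58.6 and 49.97 CPM in AX libraries, against 26.7, 73.9, 61.2, 55.2 and 40.6 CPM in NC libraries. AX 8 stood above the other AX libraries, while the NC libraries spread over a wider range that took in most AX values. Slc2a6 (GLUT6) had 37.0 to 77.5 CPM in AX libraries, against 43.9 to 95.8 CPM in 4 NC libraries and 9.49 CPM, from 102 counts, in NC 3. Of the summed transporter FPKM, Slc2a1 made up 74.8 ± 7.78% in AX libraries and 74.6 ± 10.7% in NC libraries (SD, n = 5 each).

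Hexokinases trap glucose by phosphorylation. Hk2, the inducible hexokinase, which binds to mitochondria (chr6:82725025-82774454), had 245.3, 143.0, 176.4, 132.4 and 109.7 CPM in AX libraries, against 160.5, 166.6, 149.5, 191.5 and 106.0 CPM in NC libraries. The NC values all lay within the AX range except NC 5, and the log2 fold change was 0.06 ± 0.24 (SE). Hk1, the widespread hexokinase (chr10:62268855-62379908), had 33.5, 18.9, 18.1, 27.1 and 13.4 CPM in AX libraries, against 30.7, 33.4, 126.2, 19.4 and 9.08 CPM in NC libraries. NC 3 alone lay above the AX range and NC 5 alone below it, and the log2 fold change was -0.06 without NC 3. Hk3, the hexokinase typical of myeloid cells, had 42.1 CPM in AX 6 and 87.5 to 113.0 CPM in the other AX libraries, against 74.0 to 131.5 CPM in NC libraries. By FPKM, Hk2 supplied 58.1 ± 12.2% of hexokinase RNA in AX libraries and 54.6 ± 9.27% in NC libraries, and Hk3 supplied 37.5 ± 12.9% in AX libraries and 37.9 ± 5.12% in NC libraries (SD, n = 5 each). AX 6, the library with the most mesothelial RNA, had the largest Hk2 share (78.8%) and the smallest Hk3 share (15.2%); the part of mesothelial RNA in this was not tested. The order of Hk2 and Hk3 depended on the length used: per kilobase of the longest coding transcript, Hk2 held 46.7 ± 12.5% and Hk3 45.02 ± 14.4% in AX libraries, and Hk2 held 42.6 ± 9.80% and Hk3 44.5 ± 5.47% in NC libraries (SD, n = 5 each). By FPKM, Hk1 was the least of the 3 in every library, with its largest share, 19.1%, in NC 3. This too depended on the length: per kilobase of the longest coding transcript, Hk1 held 30.3% in NC 3, above Hk2 at 27.8%.

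Gpi1, phosphoglucose isomerase (chr7:34201330-34230336), turns glucose 6-phosphate into fructose 6-phosphate at the branch point. It had 396.2, 198.5, 183.1, 496.3 and 182.8 CPM in AX libraries, against 237.5, 574.7, 187.6, 390.7 and 150.6 CPM in NC libraries. High and low libraries occurred in both groups: AX 6, AX 9, NC 2 and NC 4 lay at 390.7 CPM or more and the others at 237.5 CPM or less. The log2 fold change was -0.08 ± 0.42 (SE). Gm1840, a processed pseudogene that shares part of the 7.40% of recurring Gpi1 windows, was counted at 29.7 to 68.5 CPM in AX libraries and 27.4 to 64.7 CPM in NC libraries.

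Phosphofructokinase commits glucose to glycolysis. Pfkl, the liver-type subunit (chr10:77986947-78010083), had 228.0, 314.4, 429.7, 323.1 and 405.6 CPM in AX libraries, against 289.2, 376.8, 356.8, 477.8 and 300.8 CPM in NC libraries. It made up 88.6 ± 4.06% of phosphofructokinase FPKM in AX libraries and 91.3 ± 2.72% in NC libraries (SD, n = 5 each), with Pfkp, the platelet-type subunit, next. The lowest Pfkl share, 81.4%, was in AX 6. Pitrm1 overlaps Pfkp on the opposite strand, with 16.04% of Pfkp windows recurring in it. Pitrm1 had 37.0 CPM in AX 6 and 5.57 to 17.3 CPM elsewhere, and its part in the Pfkp counts was not tested. Pfkm, the muscle-type subunit (chr15:98092589-98132447), had the smallest p of all members at 2.95, 2.10, 1.88, 1.64 and 1.22 CPM in AX libraries, against 1.38, 1.02, 1.67, 1.31 and 1.17 CPM in NC libraries. These values rest on 13 to 34 counts a library, and 3 AX libraries lay above every NC library. The log2 fold change was 0.58 ± 0.31 (SE), or 0.38 without AX 6, with an unadjusted p of 0.0917 in edgeR's test and an exact permutation p of 0.0635. Senp1, on the opposite strand, overlaps Pfkm and had 20.3 to 44.9 CPM in AX libraries and 19.6 to 41.9 CPM in NC libraries. Gm26513 overlaps Pfkm on the same strand, and 0.0% of Pfkm windows recur in other genes. The sources used here do not say whether counting used strand.

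Fructose 2,6-bisphosphate is the strongest known activator of phosphofructokinase, and the bifunctional Pfkfb enzymes set its level. Pfkfb3, the form with the highest kinase over phosphatase activity (chr2:11471433-11554077), had 869.1, 1429.8, 2198.7, 1322.4 and 1395.1 CPM in AX libraries, against 1034.8, 1479.3, 1959.7, 154.6 and 1175.0 CPM in NC libraries. It was the member with the widest span, 14.2-fold between AX 8 and NC 4, and NC 4 was the only library under 869.1 CPM. The log2 fold change was 0.31 ± 0.51 (SE), and it was 0.02 without NC 4. In NC 4, Pfkfb3 supplied 63.0% of the FPKM of the 3 Pfkfb genes and Pfkfb4, a related form, 35.1%, against Pfkfb3 shares of 90.5 to 98.05% in all other libraries. Pfkfb4 itself was not low in NC 4, at 39.4 CPM within a range of 11.1 to 67.8 CPM over all libraries. Pfkfb2, the heart-type form, had 1.04, 3.47, 3.86, 2.82 and 6.41 CPM in AX libraries, against 3.02, 1.86, 2.70, 3.85 and 2.25 CPM in NC libraries. Pfkfb2 overlaps Yod1 on the opposite strand, which had 12.2 to 18.3 CPM over the libraries. On the same strand it overlaps Gm29427, in which 23.88% of Pfkfb2 windows recur and which held 0 to 3 counts a library. Tigar, a phosphatase that works against these kinases, averaged 14.8 ± 5.37 CPM in AX libraries and 13.8 ± 5.66 CPM in NC libraries (SD, n = 5 each).

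**Figure D3:**
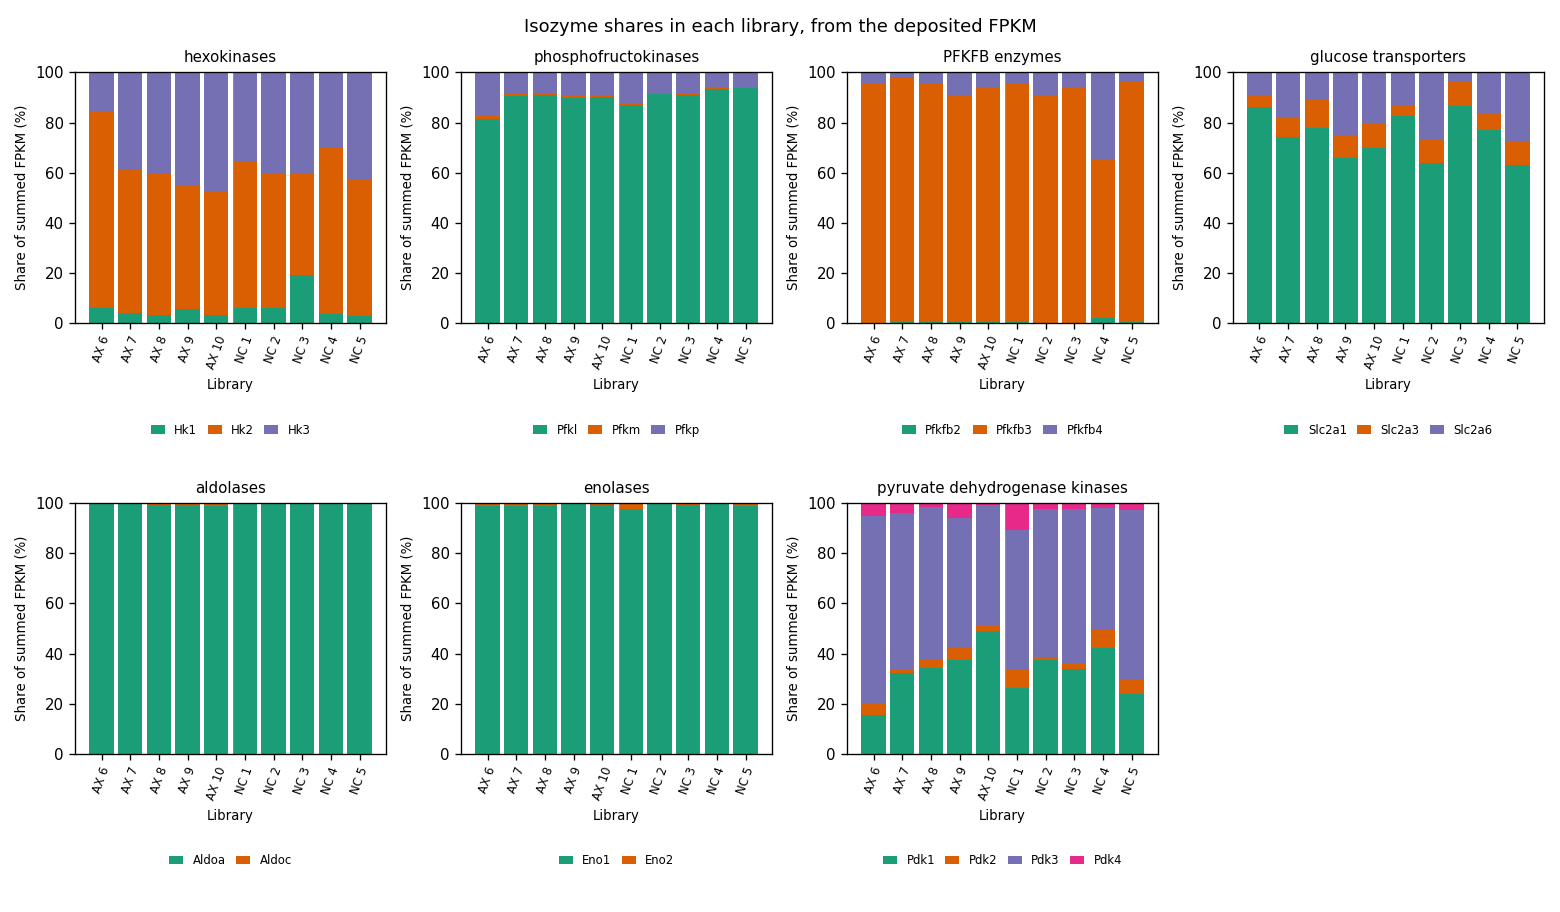
Share of each family's summed FPKM held by each gene, per library, with the AX libraries on the left and the NC libraries on the right of each panel. Pfkfb3 falls short of its usual share in NC 4 (63.0%), Hk1 is largest in NC 3 (19.1%) and Hk2 in AX 6 (78.8%).

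Aldolase splits fructose bisphosphate, and triose phosphate isomerase evens out the products. Tpi1 (chr6:124810586-124814296) had 567.0, 375.4, 670.3, 506.1 and 511.1 CPM in AX libraries, against 555.5, 630.4, 424.5, 572.8 and 391.8 CPM in NC libraries. The groups covered nearly the same range, and the log2 fold change was 0.03 ± 0.20 (SE). Aldoa, the main aldolase outside liver and brain, averaged 507.1 ± 132.5 CPM in AX libraries and 588.9 ± 158.2 CPM in NC libraries (SD, n = 5 each). It made up 99.3 ± 0.378% of the summed FPKM of Aldoa and Aldoc in AX libraries and 99.6 ± 0.102% in NC libraries (SD, n = 5 each). Aldoc, the brain-type aldolase (chr11:78322968-78327781), had 1.73, 1.94, 2.61, 3.94 and 4.87 CPM in AX libraries, against 1.30, 3.07, 1.12, 3.19 and 1.44 CPM in NC libraries. AX 9 and AX 10 lay above all NC libraries, and the log2 fold change was 0.57 ± 0.43 (SE), from 12 to 60 counts a library, or 0.33 without AX 10. With the level of the mesothelial genes as a covariate in edgeR, its unadjusted p was 0.0308 and its adjusted p 0.999.

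The steps from triose phosphate to pyruvate return ATP. Pkm, pyruvate kinase (chr9:59656368-59679375), was the most abundant member by CPM and by FPKM, with 2728.3, 2547.1, 2494.8, 2474.6 and 2021.8 CPM in AX libraries, against 2348.7, 2675.6, 2917.0, 2894.1 and 2381.4 CPM in NC libraries. Only AX 10 lay below all NC libraries, and the whole span was 1.44-fold. The log2 fold change was -0.11 ± 0.17 (SE), with a 95% interval from -0.49 to 0.28. The M1 and M2 forms, which arise by splicing, share a row and could not be told apart. Eno1, the main enolase (chr4:150236721-150248879), had 357.5, 349.0, 246.6, 381.2 and 250.1 CPM in AX libraries, against 344.1, 463.3, 292.4, 509.0 and 241.1 CPM in NC libraries. NC 2 and NC 4 lay above all AX libraries and NC 5 below them. Its near copy Eno1b, with 99.39% identity over the coding sequence, was counted at 12.3 to 40.5 CPM in AX libraries and 10.7 to 37.4 CPM in NC libraries. Eno2, the neuronal enolase (chr6:124760053-124769673), had 7.72, 6.14, 5.33, 2.56 and 3.49 CPM in AX libraries, against 13.3, 2.82, 4.19, 3.27 and 4.41 CPM in NC libraries. AX 6 and NC 1, each the highest of its group in mesothelial genes, were also the highest in Eno2; the part of mesothelial RNA in this was not tested.

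Pgk1 and Pgam1 followed Pkm in FPKM, while by CPM Pfkfb3 came between Pkm and Pgk1. Pgk1 averaged 1154.1 ± 238.9 CPM in AX libraries and 1061.6 ± 204.7 CPM in NC libraries, and Pgam1 averaged 643.2 ± 128.3 CPM in AX libraries and 617.1 ± 89.3 CPM in NC libraries (SD, n = 5 each). Both groups' spreads were larger than these differences. Gapdh had 106.3, 49.1, 39.7, 64.7 and 23.3 CPM in AX libraries, against 82.3, 56.1, 37.7, 63.2 and 37.6 CPM in NC libraries. AX 6 and NC 1 were the highest in their groups, and AX 10 lay below all NC libraries. With a mean of 6.57 FPKM, Gapdh ranked 22 of 34 members, and its log2 fold change of 0.03 ± 0.38 (SE) turned to -0.06 with library totals in place of TMM. The 7 listed genes in the table that share windows with Gapdh held 2 to 15 counts a library in sum, so few reads were listed under those names.

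The deposited FPKM depends on a length that is larger than any coding transcript for all 34 members. For Gapdh it was 8626 bases, against 1420 bases for the longest coding transcript, and for Pfkfb3 it was 18890 against 4801 bases. In Gapdh it exceeded the whole gene span, from 125161715 to 125166467, as it did in Aldoa, Aldoc, Tpi1 and Eno2. Such a length cannot be that of a transcript. Per kilobase of the longest coding transcript, Pkm (1048 CPM per kilobase), Pgk1 (607.1) and Pgam1 (355.0) kept places 1 to 3, while Gapdh moved to place 14 at 39.4 CPM per kilobase. Divided by the windows that recur nowhere else, 290 for Gapdh, the same counts gave Gapdh 193.1 CPM per kilobase of such windows and place 9. On that scale Pgk1 came first at 1946.8 and Pkm second at 1211.3, and Eno1 moved to place 4 from place 8 on the scale of the longest coding transcript. The scale of such windows holds only if no read from a recurring window was counted, which the sources used here do not state. Otherwise its values are too high for genes such as Gapdh, Pgk1 and Eno1. Under the first scale Pkm ranged from 750.5 to 1164.1 FPKM over the libraries and lay above every other member in each. Pgk1, at 251.97 to 447.1 FPKM, and Pgam1, at 256.7 to 453.8 FPKM, overlapped nearly throughout and have no order. The lowest member depended on the scale as well: it was Pfkfb2 by FPKM, at 0.0618 to 0.403 FPKM, and Pfkm per kilobase of the longest coding transcript, at a mean of 0.568 CPM per kilobase against 0.707 for Pfkfb2.

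**Figure D4:**
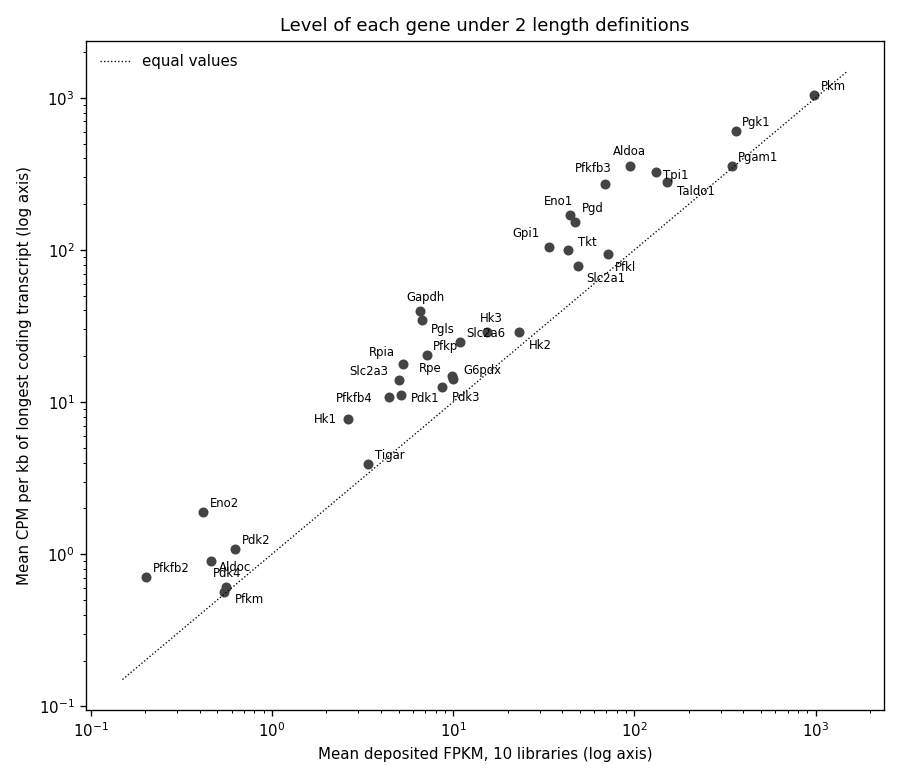
Mean level of each gene over 10 libraries, as deposited FPKM (horizontal, log axis) and as CPM per kilobase of the longest coding transcript (vertical, log axis), with a dotted line of equal values. Pfkfb3, Gapdh and Eno1 lie far above the line, and Pkm and Pgam1 lie close to it.

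Pyruvate dehydrogenase kinases switch off pyruvate dehydrogenase by phosphorylation. Pdk3 (chrX:93764607-93832201) had 30.1, 25.1, 29.2, 21.3 and 25.4 CPM in AX libraries, against 25.1, 30.8, 22.2, 29.5 and 25.5 CPM in NC libraries. It was as even as Pkm, with a span of 1.44-fold and a log2 fold change of -0.02 ± 0.17 (SE). By FPKM it held 59.5 ± 10.5% of the kinase RNA in AX libraries and 58.6 ± 7.07% in NC libraries, with Pdk1 next at 33.6 ± 12.0% in AX libraries and 32.7 ± 7.61% in NC libraries (SD, n = 5 each). Pdk1, a textbook target of hypoxia-inducible factor, spanned 23.1 CPM (AX 6) to 96.1 CPM (AX 10) in AX libraries and 33.4 to 95.1 CPM in NC libraries. Pdk2 (chr11:95026258-95041354) had 2.51, 0.889, 1.88, 2.82 and 1.62 CPM in AX libraries, against 4.15, 0.769, 1.21, 5.73 and 2.70 CPM in NC libraries. NC 1 and NC 4 lay above all AX libraries, NC 2 lay below them, and the log2 fold change was -0.57 ± 0.54 (SE), or -0.18 without NC 4. Pdk4, which starvation and glucocorticoids induce in many tissues (chr6:5483351-5496309), had 2.60, 2.18, 0.835, 3.28 and 0.568 CPM in AX libraries, against 6.30, 1.47, 1.02, 1.47 and 1.44 CPM in NC libraries. NC 1 stood alone at the top, and without AX 6 and NC 1 the log2 fold change was 0.36 in place of -0.30. All 4 kinases had fitted values below 0 under each scaling tried, Pdk1 and Pdk4 had values above 0 without AX 6 and NC 1, and 0 of 4 passed the test.

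The oxidative branch of the pentose phosphate pathway starts with G6pdx, the glucose 6-phosphate dehydrogenase that sets its rate. G6pdx averaged 34.7 ± 11.7 CPM in AX libraries and 40.5 ± 11.7 CPM in NC libraries (SD, n = 5 each). It overlaps Ikbkg on the opposite strand, which ranged from 2.30 to 64.2 CPM in AX libraries and from 2.98 to 24.7 CPM in NC libraries. Pgls, the lactonase of the next step (chr8:71592176-71601092), had 20.1, 33.0, 46.5, 37.3 and 33.8 CPM in AX libraries, against 28.8, 38.0, 39.8, 32.2 and 59.6 CPM in NC libraries. AX 6 was the lowest library and NC 5 the highest. Pgd, 6-phosphogluconate dehydrogenase and the most abundant of the 3 (chr4:149149991-149166771), had 257.1, 344.9, 217.4, 372.5 and 402.7 CPM in AX libraries, against 265.7, 473.7, 318.5, 346.3 and 399.5 CPM in NC libraries. AX 6 and AX 8 lay below all NC libraries and NC 2 above all AX libraries, and the log2 fold change was -0.18 ± 0.22 (SE), or -0.06 without NC 2.

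In the non-oxidative branch, Taldo1, transaldolase (chr7:141392199-141402968), had 336.6, 431.1, 300.6, 339.9 and 367.8 CPM in AX libraries, against 327.7, 418.6, 466.6, 378.5 and 463.5 CPM in NC libraries. Its log2 fold change of -0.21 ± 0.16 (SE) had an unadjusted p of 0.227 in edgeR's test and an exact permutation p of 0.159. Tkt, transketolase, averaged 305.9 ± 76.8 CPM in AX libraries and 340.8 ± 79.9 CPM in NC libraries (SD, n = 5 each), with AX 6 lowest and NC 5 highest. Rpia, ribose 5-phosphate isomerase (chr6:70765720-70792232), had 36.2, 25.9, 41.6, 23.1 and 26.2 CPM in AX libraries, against 29.97, 29.3, 29.3, 32.7 and 50.4 CPM in NC libraries. The NC libraries other than NC 5 lay close together. Rpe, ribulose 5-phosphate epimerase (chr1:66700831-66719805), had 9.10, 10.6, 80.3, 10.96 and 85.4 CPM in AX libraries, against 40.9, 16.1, 64.1, 13.1 and 74.1 CPM in NC libraries. AX 8, AX 10, NC 1, NC 3 and NC 5 lay at 40.9 CPM or more and the others at 16.1 CPM or less, a split that ran across both groups. Kansl1l overlaps Rpe on the opposite strand, with 17.56% of Rpe windows recurring in it, and had 11.8 to 20.1 CPM in AX libraries and 1.58 to 15.7 CPM in NC libraries. Over both branches 7 of 7 genes had lower fitted values in AX and 0 of 7 passed the test, and their median log2 fold change was -0.18. The sign held for each of the 7 under every scaling tried, but not when libraries were left out. Rpe was at 0.17 without AX 6, 0.15 without AX 7, 0.15 without AX 9, 0.12 without NC 3, 0.23 without NC 5 and 0.16 without both AX 6 and NC 1, and Rpia was at 0.01 without NC 5. Neutrophil genes, as above, had a higher mean in AX for 5 of 20. With their level as a covariate, G6pdx was at -0.22, Pgls at -0.17, Pgd at -0.17 and Taldo1 at -0.17. In that fit Tkt was at -0.14, Rpia at -0.18 and Rpe at -0.24. Members called numbered 0 with and without this covariate, and the part of neutrophil RNA was not tested.

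The highest and lowest libraries differed from member to member. AX 6 was the highest library for 5 members, among them Slc2a1, Hk2 and Gapdh, and the lowest for 8, among them Hk3, Pdk1, Pgls and Tkt. NC 5 was the highest for 4 members, among them Pgls, Rpia and Tkt, and the lowest for 8, among them Slc2a1, Hk1, Hk2, Pgk1 and Eno1. NC 2 was the highest for 6 members, among them Gpi1, G6pdx and Pgd. In 17 members the highest library was under 3-fold above the lowest, and in 5, Slc2a6, Hk1, Pfkfb3, Pdk4 and Rpe, it was at least 8-fold above.

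**Figure D5:**
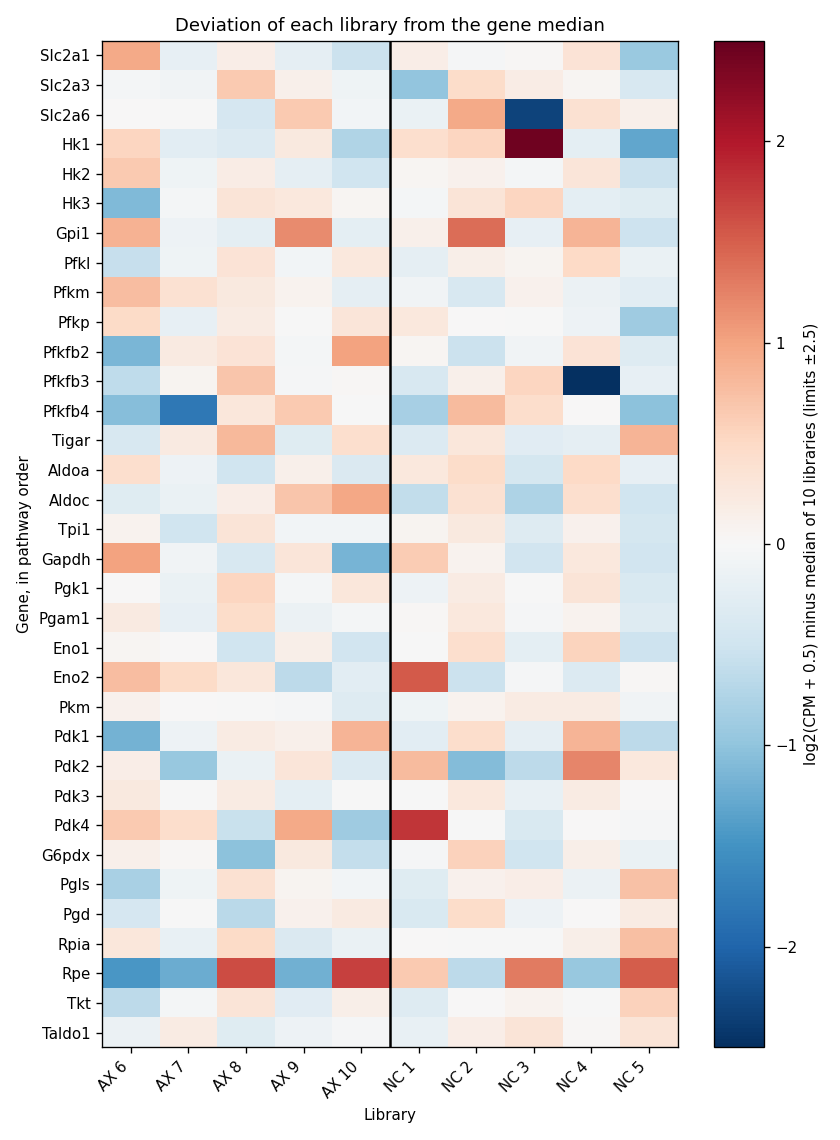
Deviation of each library from the median of 10 libraries on the log2(CPM + 0.5) scale, genes in pathway order from top to bottom, AX libraries left of the line and NC libraries right of it. Squares of strong colour are seen at Pfkfb3 in NC 4, Slc2a6 and Hk1 in NC 3, and across the Rpe row, with no column block that divides AX from NC.

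Neighbouring pathway genes gave 0 calls as well, but so did all 12264 genes tested, so this count sets no list apart. For the splits by direction, the background is 53.6% of all genes tested on the AX side and 46.4% on the NC side. Of 38 further glycolysis and pentose phosphate genes, 21 were tested, 7 with a higher and 14 with a lower fitted value in AX and 0 called. The smallest p was that of Rbks, ribokinase, at 3.95 ± 1.34 CPM in AX libraries and 5.25 ± 0.958 CPM in NC libraries (SD, n = 5 each; unadjusted p 0.184 in edgeR's test). Of 12 genes of lactate and pyruvate fate, 11 were tested, 4 higher and 7 lower and 0 called. The lactate exporter Slc16a3 had 481.8 ± 56.8 CPM in AX libraries and 561.0 ± 152.9 CPM in NC libraries (SD, n = 5 each). Also lower in AX were Ldha, at 1842 ± 332.3 against 2104 ± 392.8 CPM, and Ldhb, at 0.756 ± 0.539 against 1.19 ± 0.343 CPM. Higher in AX were Pdhx, at 14.4 ± 1.75 against 12.3 ± 1.35 CPM, and Pdhb, at 59.2 ± 6.88 against 51.6 ± 7.57 CPM. Of 15 gluconeogenesis and glycogen genes, 10 were tested, 3 higher and 7 lower and 0 called. Ugp2, which makes UDP-glucose for glycogen, had 100.4 ± 13.1 CPM in AX libraries and 127.6 ± 23.9 CPM in NC libraries (SD, n = 5 each), with an unadjusted p of 0.0692 in edgeR's test. Of 16 transcriptional regulators of glycolysis, 15 were tested, 11 higher and 4 lower and 0 called. Mlxip, a glucose-sensing factor, had 85.6 ± 18.1 CPM in AX libraries and 57.8 ± 27.7 CPM in NC libraries, and Myc had 44.8 ± 16.7 CPM in AX libraries and 38.1 ± 8.06 CPM in NC libraries (SD, n = 5 each). Arnt and Mlx went the other way, with log2 fold changes of -0.58 ± 0.58 and -0.28 ± 0.31 (SE).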

How the data were processed

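Poly(A) RNA of lavage cells was extracted with MJzol and used for libraries prepared by the VAHTS Universal V6 kit, per the labels' protocols. Reads were aligned with HISAT2 2.0.4 to mm10, per the submitters' processing notes. The sources used here do not give the counting tool, its annotation, or its use of strand and of multiple matches. Deposited were whole-number counts, not normalized, and FPKM for 34745 genes and 10 libraries. The FPKM deposited by the authors equal count over length and column total (largest relative gap 6.39e-05 over 14169 genes).

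Counts were fitted in R 4.3.3 with edgeR 4.0.16 (filterByExpr, TMM, two-sided quasi-likelihood F test, Benjamini-Hochberg, threshold 0.05) over 12264 genes and 10 libraries without covariates. Single members were also compared by exact permutation of mean log2(CPM + 0.5). Isozyme shares used FPKM. Alternatives were DESeq2 1.42.0, limma 3.58.1 (voom, and log2(FPKM + 1), requiring FPKM of 1 or more in 5 libraries), other scalings, filters (none, or 50 counts in 5 libraries), pseudocounts of 0.1 and 5, marker covariates and leaving out libraries. The fit was tested on simulated data. Python 3.11.15 and Biopython 1.88 were used for permutation and sequences, read from GENCODE M21 and RefSeq; 33 of 34 members had a promoter window.

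Values in every library are given for the member of highest mean FPKM and that of smallest p in each role, and for members in which 1 library stood apart (Dixon criterion), and Gapdh and Rpe were added after their values were seen. From each context list, up to 4 genes of smallest p were eligible, and Ldha in addition. Members and lists were chosen with earlier results of these data known. Alternatives without both AX 6 and NC 1, and lengths of the longest coding transcript, were added after seeing the data. Counts without molecular identifiers are not independent molecules, so counting precision is an upper limit.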

Additional observations from a re-analysis of the deposited data

Results flagged for a closer look

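In 5 of 68 groups of 5 libraries, 1 per member and group, 1 library stood apart by Dixon's criterion. Its gap to the nearest exceeded 0.71 of the group's whole range. Both the highest and the lowest library were examined, and all 5 that stood apart were high. For normal values, chance alone gives about 5% of groups over both ends, and CPM need not be normal. Slc2a3 stood at 84.7 CPM in AX 8, against 49.97 to 58.6 CPM in the other AX libraries. Hk1 stood at 126.2 CPM in NC 3, against 9.08 to 33.4 CPM in the other NC libraries. Eno2 stood at 13.3 CPM in NC 1, against 2.82 to 4.41 CPM in the other NC libraries. Pdk4 stood at 6.30 CPM in NC 1, against 1.02 to 1.47 CPM in the other NC libraries. Rpia stood at 50.4 CPM in NC 5, against 29.3 to 32.7 CPM in the other NC libraries. In NC 1, where both Eno2 and Pdk4 were high, the 14 mesothelial genes summed to 1208 CPM and the 11 gut epithelial genes to 1059 CPM; their part in these values was not tested. The antisense gene Hk1os was at 1.30 CPM in NC 3, against 0.259 to 0.809 CPM elsewhere in the NC group.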

How the results depend on the processing

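Over 21 alternatives, 0 members were called in any, and the number of all genes called stayed at 0 except for 1 (Rnf24) without NC 3. An unadjusted p under 0.05 was reached by Aldoc with the mesothelial covariate (0.0308) and by Hk1 without NC 5 (0.0399), both in edgeR and with adjusted p of at least 0.998. No member reached an exact permutation p under 0.05 with pseudocounts of 0.1 or 5. Members with a higher fitted value in AX numbered 7 with limma on log2(FPKM + 1), which tested 28 members, and 10 to 18 when a library was left out, against 13 in the full fit. Of 702 fitted values under alternatives, 631 kept their sign and 71 changed it, over 17 members; for none was the change past the threshold, and the cause was not tested. With library totals in place of TMM the median of all genes moved to -0.04, and Gapdh stood at -0.056, Pgam1 at -0.030, Hk2 at -0.028 and Tpi1 at -0.063. With limma on log2(FPKM + 1), Gapdh stood at -0.11, Slc2a6 at 0.12, Pgam1 at -0.0086, Hk2 at -0.028 and Tpi1 at -0.030. With limma-voom, Gapdh stood at -0.081 and Slc2a6 at 0.24. With the mesothelial covariate, Pdk1 stood at 0.10, Pfkl at 0.0053, Gapdh at -0.25, Slc2a6 at 0.13, Slc2a1 at -0.088 and Hk2 at -0.095. With the neutrophil covariate Tpi1 stood at -0.0024, and with no filter Pdk1 stood at 0.014. Without both AX 6 and NC 1, Pdk4 stood at 0.36, Rpe at 0.16, Pdk1 at 0.098, Hk3 at 0.030, Eno2 at 0.25, Gapdh at -0.14, Slc2a1 at -0.098 and Hk2 at -0.13.

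Leaving out each library in turn gave log2 fold changes of AX over NC from -0.59 to 0.23 for Rpe, -0.36 to 0.27 for Gpi1, -0.29 to 0.23 for Pdk1, -0.33 to 0.23 for Gapdh, -0.31 to 0.28 for Slc2a6, -0.074 to 0.13 for Tpi1, -0.082 to 0.041 for Pdk3, -0.18 to 0.031 for Pfkl, -0.21 to 0.060 for Hk3, -0.48 to 0.091 for Pfkfb4, -0.14 to 0.17 for Hk2, -0.15 to 0.28 for Slc2a1, -0.10 to 0.36 for Tigar, -0.055 to 0.13 for Pgam1, -0.36 to 0.46 for Eno2, -0.59 to 0.49 for Pdk4 and -0.31 to 0.011 for Rpia. The other 17 members kept their sign in every alternative in which they were tested. Their size moved: with a library left out they ranged over -1.24 to -0.06 for Hk1, -0.82 to -0.18 for Pdk2, 0.33 to 0.78 for Aldoc, 0.38 to 0.70 for Pfkm, 0.03 to 0.60 for Pfkfb2, 0.02 to 0.59 for Pfkfb3, 0.03 to 0.36 for Slc2a3, 0.13 to 0.39 for Pfkp, 0.002 to 0.20 for Pgk1, -0.15 to -0.05 for Pkm, -0.36 to -0.13 for Aldoa, -0.34 to -0.10 for Eno1, -0.35 to -0.05 for G6pdx, -0.36 to -0.02 for Pgls, -0.28 to -0.06 for Pgd, -0.27 to -0.01 for Tkt and -0.29 to -0.16 for Taldo1. The median over the members then ranged from -0.10 to 0.04.

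Isozyme shares moved with the length used. Per kilobase of the longest coding transcript, Hk2 held 42.6% in NC libraries, below Hk3 at 44.5%, Pfkl 79.1% in AX and 83.4% in NC libraries, Slc2a1 66.0% in AX libraries, Aldoa 99.8% in NC libraries and Pdk3 50.2% in NC libraries. By CPM without length, Pfkl held 77.5% in AX and 82.0% in NC libraries, Eno1 98.4% in AX libraries, and Pdk3 32.3% in AX and 31.1% in NC libraries. No paired analysis was possible because the AX and NC libraries share no replicate numbers. Members under 10 CPM on average, 6 of 34, rest on few counts, and the labels tie no library to an animal.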
